A study of Mus musculus with 4 samples.

Results

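Fatty acid uptake and beta-oxidation were followed here through 34 genes, chosen for their place in the pathway with earlier results of these data known, out of 23439 gene symbols analysed. They were read step by step: 5 genes of uptake and activation, 6 of the carnitine shuttle and its malonyl-CoA control, 14 of mitochondrial beta-oxidation, 3 of electron transfer, 3 of the peroxisome and 3 thioesterases. All 34 were in the deposited series-wide expression table and all 34 passed the filter on low values, a mean of at least 1 FPKM over the libraries. FPKM counts fragments relative to transcript length and to the mapped fragments in each library, so levels can be set side by side between genes.

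RNA sequencing of total RNA was done on hearts of mice aged 12 weeks. The Tbx20_OE hearts, with 2 libraries, carried the genotype alphaMHCMerCreMer+/-;CAGCATTbx20, in which a Cre recombinase under the cardiomyocyte promoter of alpha myosin heavy chain switches on a transgene for the T-box transcription factor Tbx20. The control hearts, also with 2 libraries, carried alphaMHCMerCreMer+/- alone, so both groups carried the Cre. Overexpression was induced at 8 weeks of age and lasted 4 weeks, but the sources used here give neither the inducing agent nor its use in the control mice. By the labels' protocols every library was prepared from a separate heart, and nothing is stated on litters. Values of a pair of libraries are given throughout as replicate 1 and then replicate 2.

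Fatty acids are the main fuel of the adult heart. They are released from lipoproteins at the capillary wall, carried into the cardiomyocyte, bound, and activated to acyl-CoA. The carnitine shuttle brings acyl groups into the mitochondrion, where each turn of beta-oxidation shortens the chain by an acetyl unit through a dehydrogenase, a hydratase, another dehydrogenase and a thiolase. Electrons from the acyl-CoA dehydrogenases pass through the electron transfer flavoprotein to ubiquinone. Peroxisomes shorten very long chains, and thioesterases return acyl-CoA to free fatty acid. Nuclear receptors of the PPAR and ERR families, with their coactivator PGC-1 alpha, are known regulators of many of these genes.

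The ventricular light chain gene Myl2 was abundant in every library, between 12425.5 and 16732 FPKM. Tbx20 itself was at 11.03 and 16.4 FPKM in the Tbx20_OE hearts, against 6.99 and 4.58 FPKM in the control hearts, and the groups did not overlap (log2 fold change 1.11, standard error 0.30, limma adjusted p = 0.848). Control replicate 2 stood apart. Its Pearson correlation with the other libraries on the log2 scale was 0.927 to 0.957, against 0.981 to 0.982 among the other 3. It held the highest value of 6 of 7 atrial muscle markers, the seventh, Bmp10, being listed at 0 in all libraries, and the summed atrial list was at 252 and 141 FPKM in Tbx20_OE and at 143 and 3756 FPKM in control. All 6 mesothelial markers were highest there too, with list sums of 0.753 and 0.796 FPKM in Tbx20_OE and 0.756 and 29.4 FPKM in control. Of the 9 fat markers 5 were highest there and 2 lowest. The list sums were 25.1 and 23.0 FPKM in Tbx20_OE and 20.6 and 60.1 FPKM in control. Cfd was highest there, at 1.90 and 1.77 FPKM in Tbx20_OE and 0.866 and 33.5 FPKM in control. Cidea was lowest there, at 22.5 and 20.2 FPKM in Tbx20_OE and 19.4 and 18.2 FPKM in control. Lep, Elovl3 and Plin1 were at most 0.0361, 0.0751 and 0.172 FPKM in any library. Of the 6 red cell and platelet markers 5 were highest there, with sums of 42.6 and 26.3 FPKM in Tbx20_OE and 30.1 and 93.3 FPKM in control. The 5 endothelial markers summed to 190 and 155 FPKM in Tbx20_OE and to 149 and 119 FPKM in control. Fibroblast markers summed to 448 and 360 FPKM in Tbx20_OE and to 346 and 323 FPKM in control. For macrophage markers the sums were 203 and 127 FPKM in Tbx20_OE and 167 and 146 FPKM in control. Skeletal muscle markers, mostly Ckm and Acta1, summed to 2152 and 1990 FPKM in Tbx20_OE and to 1757 and 1364 FPKM in control. The 7 heart muscle genes Myh6, Myl2, Myl3, Tnni3, Tnnt2, Actc1 and Ryr2 summed to 42514 and 36465 FPKM in Tbx20_OE. In control they summed to 39666 and 41419 FPKM. Of these genes 4, Myh6, Myl3, Actc1 and Ryr2, were lowest in control replicate 2, and 3, Myl2, Tnni3 and Tnnt2, were highest there. In whole hearts, fewer cells of a type and less RNA per cell cannot be told apart.

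As a group the members had higher means in Tbx20_OE, but no member passed the test. The mean on the log2 scale was higher in Tbx20_OE for 28 of 34 members (82.4%), where the same held for 71.1% of the 10513 genes tested, and the median log2 fold change of the members was 0.34 against 0.15 for all genes. All fold changes were computed on log2(FPKM + 1), where differences of low genes come out too small. At a limma adjusted p under 0.05 (Benjamini-Hochberg over all genes), 0 members were called, where 0.019% of all genes were. At an unadjusted p under 0.05, 0 members passed as well, against 1.52% of all genes. With 2 libraries on each side, the smallest two-sided p an exact permutation test allows is 0.33. For 10 members (29.4%) each Tbx20_OE library was higher than each control library, and 28.1% of all genes showed the same order. They lay below both for 0 members, against 4.77% of all genes. A share of 29.4% beside 28.1% is near the background, so the count of separated members is not a result about this pathway.

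The higher means rested on a single library. Control replicate 2 was the lowest of the 4 libraries for 26 members (76.5%), where this held for 54.2% of all genes, and in control replicate 1 the FPKM was at least 2 times that of control replicate 2 for 13 members (38.2%, against 10.9% of all genes) and at least 3 times for 5 (14.7%, against 2.34%). Control replicate 2 was the highest library for 3 members (8.82%), against 25.5% of all genes. Without control replicate 2 the members' median log2 fold change was 0.0012, with 17 members above 0 and 17 below (68.3% of all genes were above 0), and 30 of the 34 were within 0.2 of 0, as were 69.4% of all genes. The whole range was then -0.31 to 0.33. Without control replicate 1 the median was 0.68 and 13 members were called higher (38.2%, where 13.6% of all genes were called in either direction and 11.4% higher). In that fit the lone control library is control replicate 2, whose variation is taken to equal that of the other group. With each other library left out 0 members were called, where 0.209% of all genes were when control replicate 2 was dropped, and 0.105% and 0.0571% when Tbx20_OE replicate 1 or replicate 2 was. With the replicate number as a block, or with crossed numbers, 0 members were called as well (0.0571% and 0.285% of all genes). Set against control replicate 1 alone, both Tbx20_OE libraries were higher for 11 members (45.2% of all genes) and lower for 4 (16.8%). Set against control replicate 2 alone, they were higher for 27 members (59.8% of all genes) and lower for 3 (27%). Summed over the 34 genes, the transcripts made up 3.25% and 3.65% of all FPKM in Tbx20_OE, against 3.49% and 2.59% in control.

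**Figure D1:**
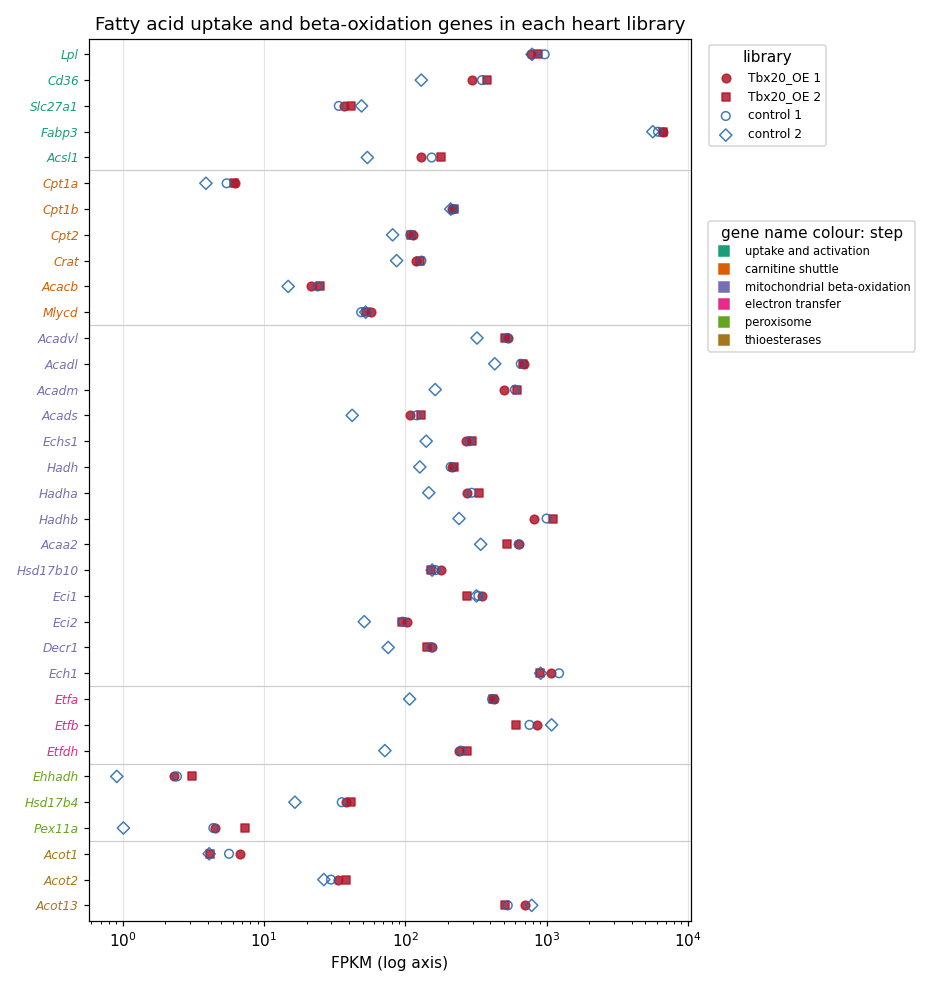
FPKM of each gene (horizontal log axis) in the 2 Tbx20_OE libraries (filled) and the 2 control libraries (open), with genes ordered by step from top to bottom. Control replicate 2, drawn as an open diamond, lies left of the other 3 libraries for 26 of the 34 genes, and right of them for Slc27a1, Etfb and Acot13.

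Levels differed widely between members. Fabp3 was the most abundant member, ranking 6 among all genes by mean FPKM, followed by Ech1 at a mean of 1028 FPKM, Lpl at 849 FPKM, Etfb at 824 FPKM and Hadhb at 792 FPKM over the 4 libraries. The spread of neighbours in this order overlapped, so Lpl, Etfb and Hadhb cannot be ranked against each other. Cpt1a, Acot1, Pex11a and Ehhadh were the lowest, at means of 5.42, 5.17, 4.31 and 2.19 FPKM.

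Among uptake and activation genes, Cd36 and Acsl1 had the largest log2 fold changes, and those of the rest were at most 0.18 in size. Lpl, the lipoprotein lipase that frees fatty acids from circulating triglyceride, was at 774 and 865 FPKM in the Tbx20_OE hearts, against 969 and 789 FPKM in the control hearts. Control replicate 1 was the highest and the groups overlapped. Cd36, the membrane fatty acid translocase, was at 295 and 380.3 FPKM in the Tbx20_OE hearts, against 348 and 129.7 FPKM in the control hearts. Both Tbx20_OE values bracketed control replicate 1, and only control replicate 2 was lower (log2 fold change 0.65, standard error 0.50, adjusted p = 0.848; -0.056 without control replicate 2). Acsl1, the main long-chain acyl-CoA synthetase of the heart, was at 128 and 178 FPKM in the Tbx20_OE hearts, against 154 and 53.9 FPKM in the control hearts. It showed the same order of libraries as Cd36 (log2 0.72, standard error 0.53, adjusted p = 0.848; -0.023 without control replicate 2). Fabp3, the heart-type fatty acid-binding protein, was at 6683 and 6619.8 FPKM in the Tbx20_OE hearts, against 6135 and 5644 FPKM in the control hearts. Here both control libraries were below both Tbx20_OE libraries, by a log2 fold change of only 0.18 (standard error 0.26, adjusted p = 0.876). Slc27a1, a fatty acid transport protein with acyl-CoA synthetase activity, was at 36.7 and 41.3 FPKM in Tbx20_OE and 33.8 and 49.0 FPKM in control, and control replicate 2 was the highest. The median log2 fold change of the 5 genes was 0.18, and -0.023 without control replicate 2.

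In the carnitine shuttle the muscle form of the gatekeeping enzyme had the smallest fold change of the 34 members. Cpt1b, the carnitine palmitoyltransferase of the muscle outer mitochondrial membrane, was at 215 and 219 FPKM in the Tbx20_OE hearts, against 219.8 and 209 FPKM in the control hearts. All 4 libraries were within a narrow band, for a log2 fold change of 0.019 (standard error 0.24). Cpt1a, the form known best from liver, was at 6.20 and 6.15 FPKM in the Tbx20_OE hearts, against 5.44 and 3.88 FPKM in the control hearts. Its Tbx20_OE libraries were both above its control libraries (log2 0.36, standard error 0.23, adjusted p = 0.848), and the value without control replicate 2 was 0.16. The ratio of Cpt1b to Cpt1a in FPKM was 34.7 and 35.7 in Tbx20_OE, against 40.4 and 54.0 in control. Cpt2, which re-forms acyl-CoA on the inner membrane, was at 113 and 109 FPKM in Tbx20_OE and 108 and 81.3 FPKM in control, with control replicate 2 low and the others close together. Crat, the acetyltransferase for short acyl groups, was at 119.9 and 128 FPKM in Tbx20_OE and 130.0 and 86.8 FPKM in control and had the same low library.

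Malonyl-CoA, the inhibitor of the outer membrane enzyme, is made by Acacb and broken down by Mlycd. Acacb was at 21.5 and 24.9 FPKM in the Tbx20_OE hearts, against 24.0 and 14.8 FPKM in the control hearts, lowest in control replicate 2 (log2 0.28, standard error 0.30, adjusted p = 0.848). Mlycd was at 57.2 and 52.6 FPKM in the Tbx20_OE hearts, against 48.7 and 52.4 FPKM in the control hearts. Its groups did not overlap, with a log2 fold change of 0.12 (standard error 0.23) that became -0.043 after median centring. The FPKM ratio of Acacb to Mlycd was 0.376 and 0.474 in Tbx20_OE and 0.493 and 0.283 in control, so the control libraries enclosed both Tbx20_OE values. The median of the 6 shuttle genes was 0.23, and 0.0079 without control replicate 2.

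Of the 14 mitochondrial beta-oxidation genes 11 were lowest in control replicate 2, some of them by a wide margin. The trifunctional protein, which carries out the last 3 reactions of the cycle on long chains, is built from Hadha and Hadhb. Hadhb was at 817 and 1112 FPKM in the Tbx20_OE hearts, against 999 and 239.9 FPKM in the control hearts. Control replicate 1 lay between the Tbx20_OE libraries and was 4.17 times control replicate 2 (log2 fold change 0.96, standard error 0.68, adjusted p = 0.848; -0.068 without control replicate 2). Hadha was at 274 and 333 FPKM in the Tbx20_OE hearts, against 295 and 147 FPKM in the control hearts, with control replicate 1 again between the Tbx20_OE libraries and 2.01 times control replicate 2. The ratio of Hadha to Hadhb was therefore 0.335 and 0.300 in Tbx20_OE and 0.295 and 0.611 in control. The partners of 1 protein complex were thus at unequal distances from the other libraries in control replicate 2.

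Hadha and Hadhb lie head to head on chromosome 5, with 272 bases between their RefSeq starts, and their 250-base upstream windows share 228 bases. The window is shown because a single stretch of DNA lies upstream of both genes. The Hadhb window on the plus strand of GRCm38.p6, chr5:30155003-30155252, is printed 5′ to 3′ with the stretch shared with Hadha in capitals.
Hadhb: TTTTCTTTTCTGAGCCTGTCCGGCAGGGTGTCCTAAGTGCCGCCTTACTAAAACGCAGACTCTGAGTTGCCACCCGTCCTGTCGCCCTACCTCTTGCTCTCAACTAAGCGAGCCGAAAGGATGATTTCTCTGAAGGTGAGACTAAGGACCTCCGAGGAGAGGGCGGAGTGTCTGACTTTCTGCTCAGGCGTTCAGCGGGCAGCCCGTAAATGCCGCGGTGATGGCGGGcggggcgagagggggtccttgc

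The 4 acyl-CoA dehydrogenases, which open each turn for chains of different length, were all lowest in control replicate 2. Acadm, for medium chains, was at 498 and 620.5 FPKM in the Tbx20_OE hearts, against 597 and 163 FPKM in the control hearts. Control replicate 2 was far below the other 3 libraries, and control replicate 1 was 3.67 times as high. Acads, for short chains, was at 108 and 129 FPKM in the Tbx20_OE hearts, against 120.2 and 42.1 FPKM in the control hearts (log2 0.72, standard error 0.51, adjusted p = 0.848; -0.026 without control replicate 2). Acadl, for long chains, was at 688 and 677 FPKM in Tbx20_OE and 656 and 429.5 FPKM in control, with groups that did not overlap and a log2 fold change of 0.36, or 0.056 without control replicate 2. Acadvl, for very long chains, was at 534 and 504 FPKM in Tbx20_OE and 527 and 321 FPKM in control. Its Tbx20_OE libraries lay on either side of control replicate 1. The ratio of Acadl to Acadm was 1.38 and 1.09 in Tbx20_OE and 1.10 and 2.64 in control.

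The genes for the later reactions divided between low and level in control replicate 2. Echs1, the short-chain enoyl-CoA hydratase, was at 270.0 and 296 FPKM in Tbx20_OE and 285 and 140.5 FPKM in control. Hadh, the dehydrogenase of the shorter 3-hydroxyacyl chains, was at 213 and 221 FPKM in Tbx20_OE and 209 and 127 FPKM in control, with separated groups and a log2 fold change of 0.41, or 0.05 without control replicate 2. Acaa2, a thiolase that releases acetyl-CoA, was at 638 and 528 FPKM in Tbx20_OE and 633 and 341 FPKM in control. Control replicate 2 was the lowest library for all 3 genes. Hsd17b10, a matrix dehydrogenase that is also part of mitochondrial RNase P, was at 180.0 and 153 FPKM in Tbx20_OE and 164 and 155 FPKM in control, and there the libraries were mixed.

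The auxiliary enzymes act on double bonds of unsaturated fatty acids. Eci2, an enoyl-CoA isomerase, was at 103 and 94.5 FPKM in Tbx20_OE and 95.9 and 51.2 FPKM in control. Decr1, the dienoyl-CoA reductase of mitochondria, was at 154 and 142 FPKM in Tbx20_OE and 153 and 75.6 FPKM in control. Both were low in control replicate 2 and nearly level in the other 3 libraries. Eci1, the other isomerase, was at 346 and 273 FPKM in Tbx20_OE and 329 and 318 FPKM in control, lowest in Tbx20_OE replicate 2. Ech1, a dienoyl-CoA isomerase, was at 1077 and 903 FPKM in Tbx20_OE and 1225 and 906 FPKM in control, with control replicate 1 the highest. Over the 14 genes the median log2 fold change was 0.43 with 12 above 0, and -0.024 with 5 above 0 without control replicate 2. Their summed FPKM was 5900 and 5984 in Tbx20_OE and 6288 and 3457 in control.

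**Figure D2:**
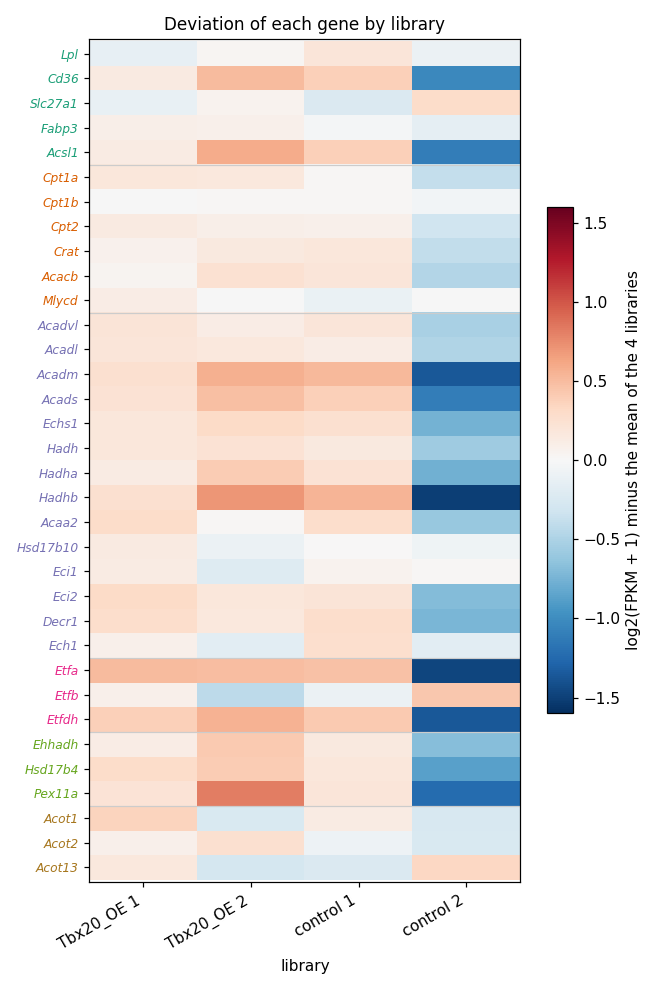
Deviation of log2(FPKM + 1) from the mean of the 4 libraries, for each gene (rows, ordered by step) and library (columns, Tbx20_OE left of control). Blue marks values below the gene's mean: the control 2 column is blue for most genes, and red for Slc27a1, Etfb and Acot13, while control 1 resembles the Tbx20_OE columns.

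Of the 6 steps, electron transfer had the largest median log2 fold change, 0.94 with all libraries and 0.036 without control replicate 2, and its members differed in sign. Etfa, the alpha subunit of the electron transfer flavoprotein, was at 422 and 420.2 FPKM in the Tbx20_OE hearts, against 411 and 107 FPKM in the control hearts. The values other than control replicate 2 were close together, and control replicate 1 was 3.83 times control replicate 2. The groups did not overlap (log2 1.00, standard error 0.63, adjusted p = 0.848), and the value was 0.036 without control replicate 2. Etfdh, the oxidoreductase that hands these electrons to ubiquinone, was at 240.2 and 273 FPKM in the Tbx20_OE hearts, against 247 and 71.7 FPKM in the control hearts (log2 0.94, standard error 0.59, adjusted p = 0.848; 0.05 without control replicate 2). Etfb, the beta subunit that pairs with Etfa, was at 852 and 605 FPKM in the Tbx20_OE hearts, against 756 and 1084 FPKM in the control hearts. Control replicate 2 was the highest library for Etfb and the lowest for both of its partners (log2 -0.33, standard error 0.33). The ratio of Etfa to Etfb was 0.496 and 0.695 in Tbx20_OE and 0.543 and 0.0989 in control, and that of Etfdh to Etfb was 0.282 and 0.452 in Tbx20_OE and 0.327 and 0.0661 in control. The transcripts of the partner subunits were 45.0% GC for Etfa and 57.1% GC for Etfb.

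The upstream windows of Etfa and Etfb are shown because control replicate 2 was the lowest library for Etfa and the highest for Etfb. Each holds 2 matches to CCAAT on either strand, printed in capitals, in the 250 bases before the RefSeq start on GRCm38.p6. Etfa lies on the minus strand at chr9:55512244-55512493 and Etfb on the plus strand at chr7:43443822-43444071, both given 5′ to 3′.
Etfa: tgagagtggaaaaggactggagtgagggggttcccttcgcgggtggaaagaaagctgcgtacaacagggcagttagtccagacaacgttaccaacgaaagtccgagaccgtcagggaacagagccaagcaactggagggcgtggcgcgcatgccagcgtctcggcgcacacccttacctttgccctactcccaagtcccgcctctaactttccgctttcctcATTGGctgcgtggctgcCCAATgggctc
Etfb: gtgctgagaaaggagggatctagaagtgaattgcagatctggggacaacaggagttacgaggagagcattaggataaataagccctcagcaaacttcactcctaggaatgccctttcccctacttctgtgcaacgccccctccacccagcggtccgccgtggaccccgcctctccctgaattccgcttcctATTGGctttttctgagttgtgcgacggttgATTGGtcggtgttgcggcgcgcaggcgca

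**Figure D3:**
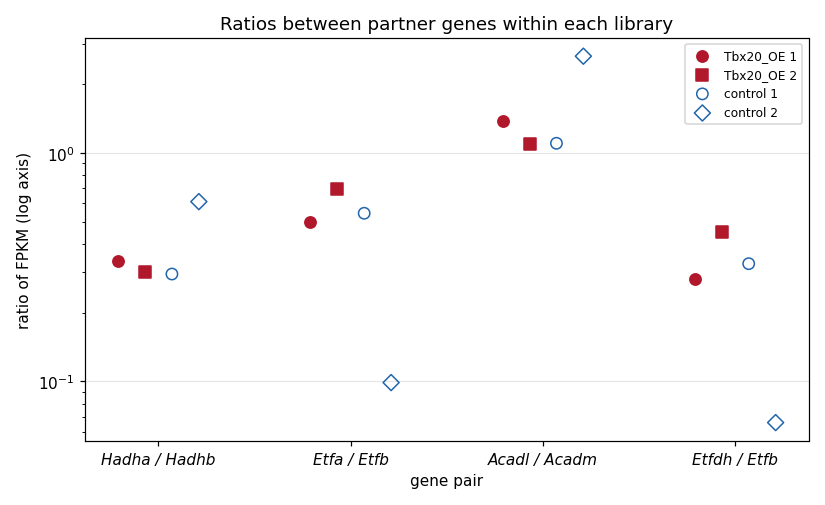
Ratio of FPKM between partner genes within each library (vertical log axis), for the 2 Tbx20_OE libraries (filled) and the 2 control libraries (open). For each of the 4 pairs drawn, Hadha to Hadhb, Etfa to Etfb, Acadl to Acadm and Etfdh to Etfb, control 2 lies outside the range of the other 3 libraries, as with Etfa to Etfb at 0.0989 against 0.496 to 0.695.

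The 3 peroxisomal genes had low to moderate levels and all had positive fold changes. Pex11a, a membrane protein that promotes peroxisome division, was at 4.52 and 7.34 FPKM in the Tbx20_OE hearts, against 4.38 and 1.01 FPKM in the control hearts. Tbx20_OE replicate 2 was the highest, Tbx20_OE replicate 1 was barely above control replicate 1, and control replicate 2 was the lowest (log2 fold change 1.04, standard error 0.50, limma adjusted p = 0.848). Without control replicate 2 the log2 fold change was 0.33, the highest among the members in that fit. It averaged 5.93 ± 1.99 FPKM in Tbx20_OE and 2.70 ± 2.38 FPKM in control (SD, n = 2 each). Hsd17b4, the D-bifunctional protein of the peroxisome, was at 38.2 and 41.5 FPKM in the Tbx20_OE hearts, against 35.5 and 16.5 FPKM in the control hearts. Its groups did not overlap (log2 0.69, standard error 0.39, adjusted p = 0.848; 0.16 without control replicate 2). Ehhadh, the L-bifunctional enzyme, was at 2.32 and 3.11 FPKM in Tbx20_OE and 2.42 and 0.908 FPKM in control, and Tbx20_OE replicate 1 was below control replicate 1. The median of the 3 genes was 0.69, and 0.16 without control replicate 2. In the authors' deposited comparison by cuffdiff, Pex11a was the only member with a p under 0.05 (p = 0.0471, q = 0.999). It was given there as 8.62 FPKM in Tbx20_OE and 4.06 FPKM in control, on another scale than the library values above. It was also the only member among the 65 genes selected there as higher. That selection asked for a p under 0.05, a log2 fold change above 0.5, more than 3 FPKM and a fold of at most 6 between the libraries of a condition, where the control libraries of Pex11a differed by 4.33 times. In the authors' deposited table the ratio was above 1 for 26 of the 34 members, and 0 had a q under 0.05. The matching shares of all genes in that table are not given here, so these counts are not read as a result about the pathway.

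The Pex11a upstream window is shown because this is the member the authors selected. It lies on the minus strand of GRCm38.p6 at chr7:79743132-79743381, and the capitals mark its match to the Ets core CCGGAAG, on the opposite strand and beginning 16 bases before the start.
Pex11a: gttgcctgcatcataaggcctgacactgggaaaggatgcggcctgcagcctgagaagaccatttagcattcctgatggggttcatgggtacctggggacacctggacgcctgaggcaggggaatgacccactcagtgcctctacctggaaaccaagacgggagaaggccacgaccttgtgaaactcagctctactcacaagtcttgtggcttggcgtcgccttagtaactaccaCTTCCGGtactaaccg

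Among 27 members with a RefSeq promoter entry, matches in the 250 bases upstream were counted on both strands. The PPAR direct repeat, AGGTCA repeated after 1 spacer base, and the T-box site AGGTGTGA were found in 0 members, and in 0.0392% and 0.618% of the windows of tested genes. The ERR element TCAAGGTCA was found in 0 members (0.255% of those windows), and its core AAGGTCA, which the longer element contains, in Acadm alone (3.70% of members against 2.84%). The Ets core CCGGAAG was found in Cpt2, Mlycd and Pex11a (11.1% against 13.5%), CCAAT in 15 members (55.6% against 34.5%) and the GC box GGGCGG in 17 (63.0% against 58.5%). These are matches of letters and not sites of binding.

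The thioesterases gave no common direction. Acot2, the mitochondrial long-chain enzyme, was at 33.4 and 37.8 FPKM in the Tbx20_OE hearts, against 29.8 and 26.5 FPKM in the control hearts. Its groups did not overlap, and its control libraries were close to each other (log2 0.33, standard error 0.23, adjusted p = 0.848; 0.25 without control replicate 2). Acot1, its cytosolic neighbour on chromosome 12, was at 6.78 and 4.15 FPKM in Tbx20_OE and 5.66 and 4.09 FPKM in control, with overlapping groups (log2 0.12, standard error 0.29, adjusted p = 0.918). The longest coding transcripts of Acot1 and Acot2 were 94.3% identical over 1330 aligned bases, so reads may have been assigned to the wrong copy and both values are uncertain. The FPKM ratio of Acot2 to Acot1 was 4.93 and 9.12 in Tbx20_OE and 5.27 and 6.48 in control, so control replicate 2 lay within the range of the other libraries. Acot13, a thioesterase of mitochondria and cytosol, was at 698 and 510.2 FPKM in the Tbx20_OE hearts, against 531 and 784 FPKM in the control hearts. Control replicate 2 and Tbx20_OE replicate 1 were the highest, and the groups overlapped. The median of the 3 genes was 0.12, and 0.17 without control replicate 2.

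**Figure D4:**
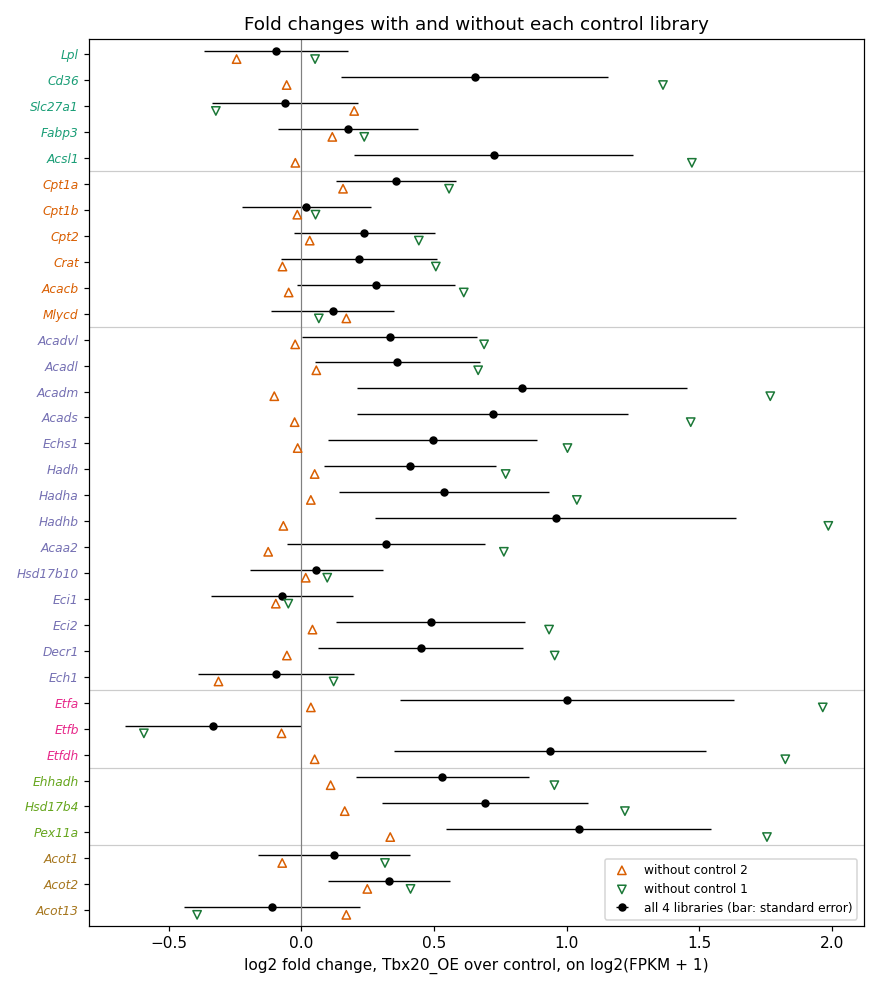
Log2 fold change of Tbx20_OE over control for each gene on the log2(FPKM + 1) scale, from all 4 libraries (black, with the standard error), without control 2 (orange) and without control 1 (green). The orange points lie near 0, between -0.31 and 0.33, and the green ones reach 1.99.

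The deviation of every library from the others varied with base composition. A deviation here is the log2 value of a gene in 1 library minus that gene's 4-library average. In control replicate 2 the deviations had a Spearman rho of 0.58 with transcript GC content across the 34 members (Pearson r of 0.52). Across 10029 tested genes with a GC value the rho in control replicate 2 was 0.47. The deviations of the other libraries ran the opposite way with GC content, with a rho across the members of -0.42 and -0.52 in Tbx20_OE and -0.49 in control replicate 1. Across all tested genes these were -0.15 and -0.40 in Tbx20_OE and -0.30 in control replicate 1. Deviations of 1 gene sum to 0 over the libraries, so these values are not independent of each other. These correlations describe genes that share the same libraries, and genes are not independent replicates. The 26 members lowest in control replicate 2 had a median GC content of 50.9% (38.4% to 60.1%), and the 3 highest there, Slc27a1, Etfb and Acot13, had 59.1%, 57.1% and 49.9%. Acads was an exception at the GC-rich end, at 60.1%, with control replicate 1 at 2.86 times control replicate 2. At the GC-poor end the ratio of control replicate 1 to control replicate 2 was 2.69 for Cd36 (38.4%) and 2.03 for Decr1 (44.4%). It was 3.83 for Etfa (45.0%) and 4.17 for Hadhb (45.4%), but only 1.23 for Lpl (43.5%) and 1.53 for Acadl (45.1%). With values corrected for GC content in each library, an alternative chosen after seeing the data, the members' median log2 fold change was 0.23. The median of all genes was then 0.0012, which the correction itself sets near 0. Without the correction these medians were 0.34 and 0.15. The part of the atrial, mesothelial, fat, and red cell and platelet markers of control replicate 2 in the members' values was not tested.

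**Figure D5:**
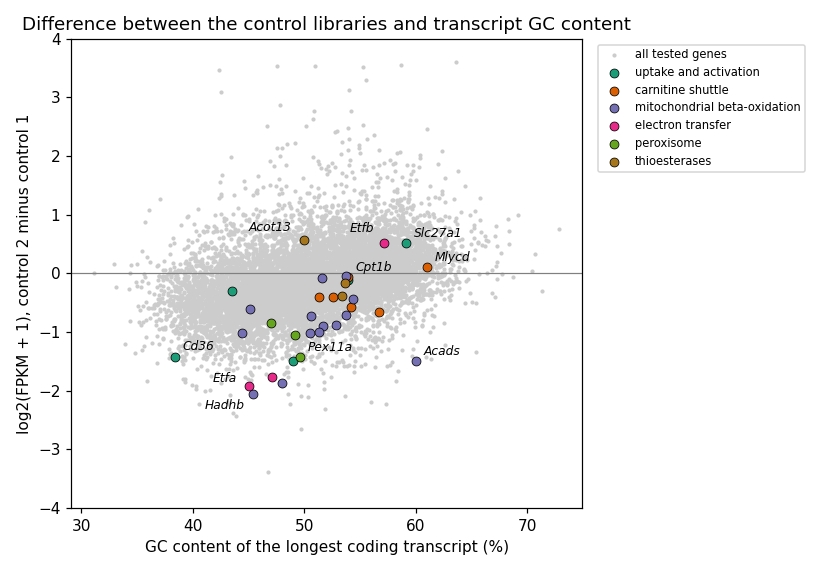
Difference in log2(FPKM + 1) between the control libraries, control 2 minus control 1, against the GC content of the longest coding transcript (%). Members are coloured by step over all tested genes in grey, and 22 genes beyond 4 log2 units are not drawn. The members lie mostly below 0, with Hadhb and Etfa the lowest, while other members of similar GC content, such as Lpl and Acadl, lie closer to 0.

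The median of further pathway genes was also closer to that of all genes without control replicate 2. Of 32 other genes of fatty acid handling, 27 were tested, 23 had positive fold changes (71.1% of all genes did), 12 had both Tbx20_OE libraries above both control libraries (28.1% of all genes), 0 passed the test in either direction, and the median log2 fold change was 0.33 (0.10 without control replicate 2, where all genes had 0.079). The 3 with the largest differences were Acad11, an acyl-CoA dehydrogenase, Abcd3, a peroxisomal transporter, and Acad12, another dehydrogenase of the family. Acad11 was at 46.5 and 56.3 FPKM in Tbx20_OE and 46.8 and 11.6 FPKM in control. Abcd3 was at 34.5 and 33.9 FPKM in Tbx20_OE and 29.9 and 16.1 FPKM in control, with groups that did not overlap. Acad12 was at 15.5 and 19.4 FPKM in Tbx20_OE and 18.5 and 6.44 FPKM in control. Their log2 fold changes of 1.09, 0.61 and 0.61 became 0.13, 0.19 and -0.085 without control replicate 2.

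Of 15 regulators and targets of the PPAR and ERR receptors, 14 were tested, with 0 passing the adjusted test and 2, Ucp3 and Pparg, higher at an unadjusted p under 0.05 (1.06% of all genes were). The same 2 genes were the ones of this list with both Tbx20_OE libraries above both control libraries (28.1% of all genes), and Esrra was the 1 gene with both below (4.77% of all genes). Ucp3, an uncoupling protein of muscle mitochondria, was at 11.2 and 11.2 FPKM in the Tbx20_OE hearts, against 5.96 and 4.93 FPKM in the control hearts. The control libraries were close together and both Tbx20_OE libraries were above them (log2 0.92, standard error 0.21, limma adjusted p = 0.848), and the value was 0.81 without control replicate 2 and 1.04 without control replicate 1. Pparg, the receptor known best from fat, was at 6.37 and 8.02 FPKM in the Tbx20_OE hearts, against 4.74 and 4.45 FPKM in the control hearts, again with groups that did not overlap (log2 0.54, standard error 0.21, limma adjusted p = 0.848; 0.51 without control replicate 2). Ppara, the main PPAR of the heart, was at 8.03 and 9.05 FPKM in Tbx20_OE and 8.81 and 5.31 FPKM in control, with control replicate 2 the low library. Ppard, another receptor of the family, was at 5.34 and 5.86 FPKM in Tbx20_OE and 6.13 and 5.58 FPKM in control, with overlapping groups. Ppargc1a, the gene of PGC-1 alpha, was at 6.88 and 45.2 FPKM in Tbx20_OE and 11.1 and 7.37 FPKM in control. Tbx20_OE replicate 2 alone was high and Tbx20_OE replicate 1 was the lowest library. Ppara, Ppard, Ppargc1a and Esrra were named after their values were seen.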

How the data were processed

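RNA-seq was measured in 4 mouse heart libraries, 2 Tbx20_OE and 2 control. The authors deposited FPKM values per gene, made with TopHat2 2.0.13 and Cufflinks 2.1.1 on mm10, per the submitters' processing notes. The authors also deposited a cuffdiff comparison with FPKM means, p-values and q-values, and a flag score that marks the genes they selected. A quantile-normalized FPKM table served as an alternative only. Depth is unknown from FPKM, so no counting interval is given.

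The highest entry was kept for a repeated symbol, and 4 symbols with a failed estimate and 1 not in the library files were left out. Genes with a mean of at least 1 FPKM (10513) were tested on log2(FPKM + 1) with limma 3.58.1 (R 4.3.3, trended variance, Benjamini-Hochberg over all genes, threshold 0.05). The fit was also run on simulated data with the same spread in every library. Those data held no outlying library, so they do not bear on control replicate 2. The groups were compared without a block for replicate number. Alternatives were other scalings, a GC correction, the replicate block and each library left out. GC content came from the longest coding GENCODE M21 transcript, and upstream sequences from a RefSeq table on GRCm38.p6. Lpl, Crat, Cpt1b, Decr1, Acaa2, Hsd17b4 and Acot13 had no entry in that table. Every member is named, with fuller statistics for the smallest p-values of each step. Of other pathway genes, those past an unadjusted p of 0.05 are named, or else the 3 with the largest fold change. The members and lists were chosen with earlier results of these data known.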

Additional observations from a re-analysis of the deposited data

How the results depend on the processing

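With 2 libraries a group, the single-library alternatives decide the members' values, and the depth behind an FPKM value is unknown. Of the 34 members 0 were called with all 4 libraries, and leaving out 1 library at a time gave 0 to 13, the 13 being without control replicate 1 and resting on control replicate 2 alone. Members with both Tbx20_OE libraries above all control libraries numbered 10, or 5 with GC-corrected values, 3 with median centring, 4 with the authors' quantile-normalized FPKM and 11 to 27 with 1 library left out. Those below numbered 0, or 3, 3 and 2 under the same 3 scalings and 1 to 5 with 1 library left out. Of all 10513 genes tested, 2950 lay above with every library kept and 4303 to 6291 with 1 left out. Below lay 501 genes with every library kept, and 874 to 2840 with 1 left out. Counts over all genes under the 3 scalings are not given here. Median centring moved the values by 0.16 on the log2 scale, with 24 members above 0 and 10 below. The sign turned with GC correction for Cpt1b (-0.079) and Hsd17b10 (-0.076), with centring for Cpt1b (-0.14), Mlycd (-0.043), Hsd17b10 (-0.10) and Acot1 (-0.039), and with quantile values for Lpl (0.0081), Cpt1b (-0.061), Mlycd (-0.0073), Ech1 (0.0075), Acot1 (-0.026) and Acot13 (0.0062). Leaving out 1 library turned the sign of the members listed next, some of them already named above. Their log2 fold changes ranged as follows: Slc27a1 -0.32 to 0.20, Hsd17b10 -0.062 to 0.18, Acot1 -0.18 to 0.42, Eci1 -0.24 to 0.098, Ech1 -0.31 to 0.12, Acot13 -0.39 to 0.17, Lpl -0.24 to 0.052, Cd36 -0.056 to 1.36, Acsl1 -0.023 to 1.47, Cpt1b -0.016 to 0.053, Crat -0.071 to 0.51, Acacb -0.048 to 0.61, Acadvl -0.023 to 0.69, Acadm -0.10 to 1.77, Acads -0.026 to 1.47, Echs1 -0.014 to 1.00, Hadhb -0.068 to 1.99, Acaa2 -0.13 to 0.76, Decr1 -0.055 to 0.95. The cause was not tested. With the replicate number as a block, 0 members were called (smallest adjusted p 0.999) and 6 genes in all, against 2 without it. The numbers are not known to pair the libraries. Deviations of same-numbered libraries from their group means had a correlation of -0.45 across genes, which cannot settle the pairing. A crossed pairing, chosen after seeing the data as was the GC correction, called 0 members and 30 genes.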
